A study of Mus musculus with 15 samples.

Results

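Early innate lymphoid progenitors that lack TCF-1 were set against the specified fraction of wild-type early innate lymphoid progenitors, gene by gene, in bulk RNA-seq of sorted mouse bone marrow cells. The comparison rests on 4 of the 15 libraries of the series, 2 of the mutant group (EILP_KO) and 2 of the specified fraction (sEILP_WT), chosen by their labels, and it asks how far the mutant cells resemble the specified stage. EILP_KO cells had the genotype Tcf7EGFPnull/-, read here as no working Tcf7 allele, and were sorted as Lin- Kit+ 2B4+ a4b7+ Tcf7+ Thy1-, where Tcf7+ is taken here as read from the reporter. The sEILP_WT cells came from the strain Tcf7GFP Zbtb16GFP through the same gate, narrowed to Zbtb16low Flt3high. Both groups were of C57BL/6 background. The mutant gate was not split by Zbtb16 or Flt3, so EILP_KO is a whole gate and sEILP_WT a fraction of one. Genotype, reporter strain and gate differ together between the groups and cannot be told apart. EILP_KO replicate 1 and both sEILP_WT libraries were in batch 1, and EILP_KO replicate 2 was in batch 2. Ages, sexes and the number of animals per library are not given in the sources used here. P-values therefore measure the spread between libraries, which may be technical.

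Tcf7 encodes TCF-1, a DNA-binding protein of the T cell factor family that partners with beta-catenin and Groucho-type corepressors. It is switched on as lymphoid progenitors enter the T cell path in the thymus or the innate lymphoid cell (ILC) path in the bone marrow. The early innate lymphoid progenitor (EILP) comes between the all-lymphoid progenitor (ALP) and the ILC progenitor (ILCP). In the wild type, the specified EILP is low for PLZF, the product of Zbtb16, and still high for the cytokine receptor Flt3, whereas the committed EILP (cEILP) is high for PLZF and low for Flt3. For context, values are also given from ALP_WT (n = 3, Tcf7EGFP/+, a4b7- Flt3high IL-7Ra+), EILP_WT (n = 3, Tcf7EGFPnull/+, the same gate as EILP_KO), cEILP_WT (n = 3, the strain of sEILP_WT, Zbtb16high Flt3low) and ILCP_WT (n = 2, Tcf7EGFP/+, Thy1+ IL-7Ra+).

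Values are log2 expression levels on the scale of the deposited table, scaled to library size and quantile normalized, and the depth of each library is unknown. Each library has a lowest value, from -4.83 to -4.41, and a gene there is described as at the lowest value. EILP_KO had 1871 and 1910 genes at the lowest value and sEILP_WT had 1497 and 1309, so the mutant libraries listed more genes there. Differences are EILP_KO minus sEILP_WT on the log2 scale, fitted by limma with the batch as a term. Because of that term, a fitted difference can depart from the difference of the 2 means. A gene counts as changed at a Benjamini-Hochberg adjusted p under 0.05 over 12572 tested genes.

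Tcf7, the targeted gene, was lower in EILP_KO and was 1 of 2 genes that changed. It was 6.97 and 7.65 in the EILP_KO libraries and 9.98 and 10.23 in the sEILP_WT libraries. Both mutant libraries lay below both specified libraries. The means were 7.31 ± 0.48 (SD, n = 2) and 10.11 ± 0.17 (SD, n = 2), and the fitted fall was 7.60-fold, with a difference of -2.93 (SE 0.36, 95% interval -3.72 to -2.13, limma adjusted p = 0.0232). Tcf7 was not at the lowest value in the mutant: the mean in ALP_WT, the stage before Tcf7 is switched on, was 2.36 ± 0.39 (SD, n = 3). The values are per gene, and which part of the locus the mutant reads came from was not analysed here. Tcf7 lies on chromosome 11 from 52246527 to 52283383 in RefSeq's annotation of GRCm38.p6, the assembly also called mm10. In a bulk library, fewer cells that hold a transcript and less transcript per cell cannot be told apart, here and in every result that follows.

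In all, 2 of the 12572 tested genes changed, which is 0.0159%, and both were lower in EILP_KO. None was higher in this fit. At an unadjusted limma p under 0.05 there were 736 genes (5.85%), 254 higher (2.02%) and 482 lower (3.83%). The libraries of the groups did not overlap, with both mutant libraries higher, for 2313 genes (18.4%), and with both lower for 2104 (16.7%), 35.1% of the genes in all. A low count of changed genes does not show that the groups were alike. The median SE was 0.768 over all tested genes, and the 95% interval lay wholly within 1 log2 unit of 0 for 2081 genes (16.6%), all of them among the 5887 genes with a mean of at least 5 (35.3% of those). For most genes, the interval therefore admitted a difference of 2-fold or more in at least 1 direction. The count depends on the fit: it was 5 with no batch term (2 higher, 3 lower), 13 with no intensity trend (6 higher, 7 lower) and 0 in the 4 libraries alone. Leaving out EILP_KO replicate 1 gave 31 changed genes, all lower, and leaving out EILP_KO replicate 2 gave 49, of which 1 was higher. In these fits a group is 1 library, which is assumed to vary like the other groups. Leaving out sEILP_WT replicate 1 gave 0, and leaving out sEILP_WT replicate 2 gave 4, all higher and none of them Tcf7 or Plod1. Tcf7 itself kept a difference between -3.13 and -2.63 in these fits, with adjusted p from 0.00809 to 0.347 by limma.

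Plod1 was the other changed gene. It encodes a lysyl hydroxylase that modifies collagen in the endoplasmic reticulum. It was at the lowest value, -4.60, in both mutant libraries and at 3.74 and 4.52 in the sEILP_WT libraries (limma adjusted p = 0.0195). No fold is given against a group at the lowest value. Plod1 was present in the other wild-type groups too, with means of 3.94 in ALP_WT, 4.67 in EILP_WT, 4.05 in cEILP_WT and 6.25 in ILCP_WT. With a pseudocount of 1, which draws low values together, its adjusted p was 0.302. It was 0.123 in the batch 1 libraries, 0.0861 without sEILP_WT replicate 1 and 0.0747 without sEILP_WT replicate 2. Its level lay under the minimum set for naming genes, and it is named here since it completes the list of changed genes.

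Since the mutant lacks a DNA-binding factor, the 250 bases before the start of Plod1 are shown, with the letters read from RefSeq's GRCm38.p6 on the minus strand (chr4:147936777-147937026). The gene body runs from 147909753 to 147936776 on chromosome 4.
Plod1: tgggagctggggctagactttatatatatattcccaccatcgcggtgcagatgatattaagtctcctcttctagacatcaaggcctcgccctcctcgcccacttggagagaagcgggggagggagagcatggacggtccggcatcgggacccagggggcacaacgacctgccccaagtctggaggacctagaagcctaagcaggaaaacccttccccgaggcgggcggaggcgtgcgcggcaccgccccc
The window was searched on both strands for CTTTGAA and CTTTGAT, the letters that TCF and LEF proteins are known to prefer, and neither was found. Of 23 genes with such a window, Plod1 and genes named by rule, 1 held the letters, Minpp1. Counted per gene in the same way, they were found in any window of 8.63% of the 27025 genes with a window. They were found in 7.48% of the 32851 RefSeq windows of that length. The match is a description of letters, not of binding, and a missing match says only that these letters are not in this window.

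**Figure D1:**
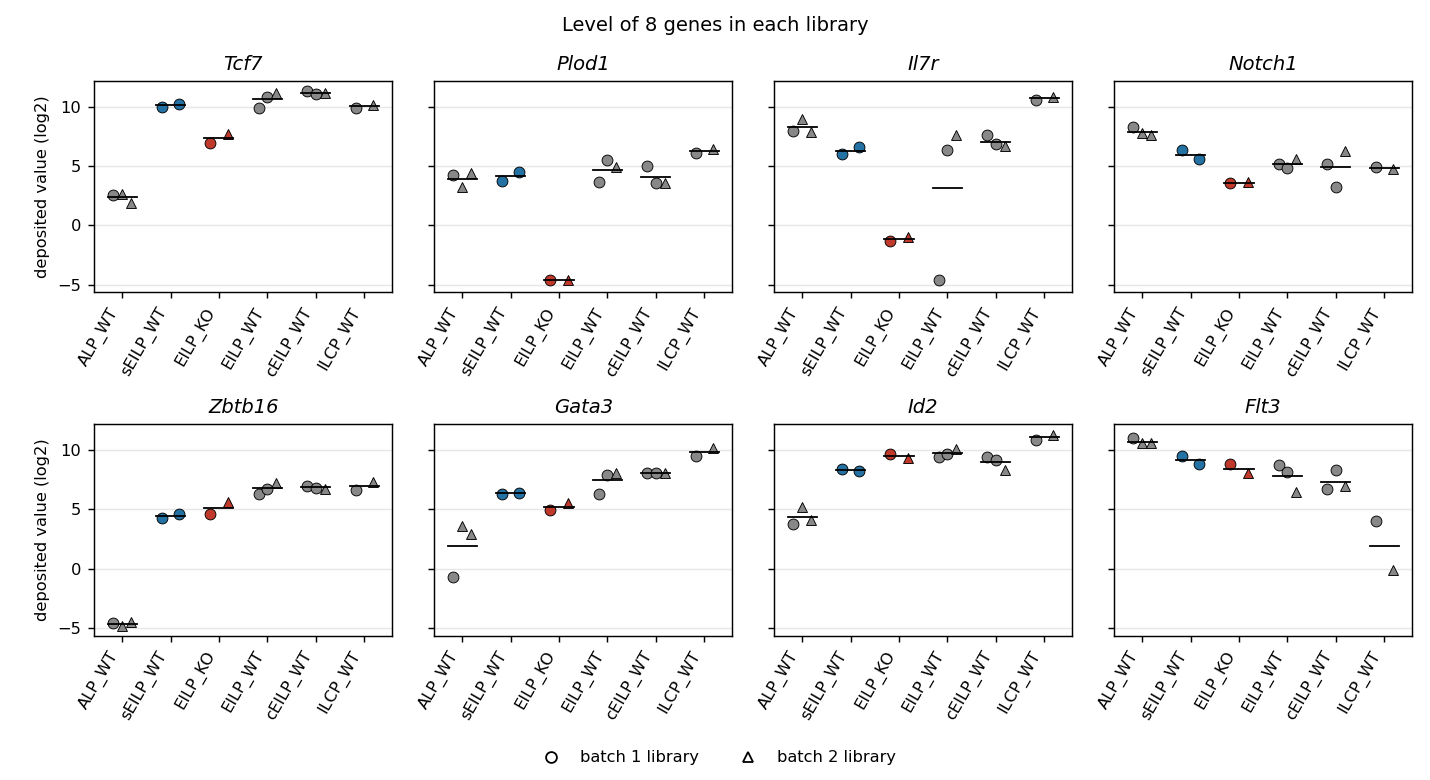
Deposited log2 values of 8 genes in each of the 15 libraries, by group; circles are batch 1 libraries, triangles are batch 2 libraries and the bar is the group mean. EILP_KO (red) lies below sEILP_WT (blue) for Tcf7, Plod1, Il7r, Notch1 and Gata3, and above it for Id2; for Zbtb16 and Flt3 the groups overlap or meet, with EILP_KO replicate 2 above both sEILP_WT libraries for Zbtb16 and below both for Flt3.

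Among genes with a level above the median, no overlap and a difference of at least 1 log2 unit, those with the smallest p-values after Tcf7 and lower values in EILP_KO did not pass the threshold, and their values follow without a claim of change. Aff4, a scaffold of the super elongation complex, was 3.09 and 4.63 in EILP_KO and 6.55 and 6.58 in sEILP_WT. Its difference was -2.86 (SE 0.48, limma adjusted p = 0.139). Cd72, a surface receptor of the B lineage, was 4.10 and 2.43 against 6.47 and 6.09, with an adjusted p of 0.217. In both genes every mutant library lay under every specified library, and Cd72 was lower in EILP_KO replicate 2 while Aff4 was lower in replicate 1. Zfp60, a zinc finger gene, was 2.74 and 3.001 against 6.47 and 5.76 (adjusted p = 0.217). Brms1l, a subunit of a histone deacetylase complex, was 0.92 and 2.20 against 4.84 and 5.17 (adjusted p = 0.257). Fkbp5, a co-chaperone of the glucocorticoid receptor, was 7.87 and 8.43 against 9.77 and 9.53 (adjusted p = 0.388). These 3 genes were also without overlap. Opa1, which fuses inner mitochondrial membranes, was 5.77 and 6.72 against 7.50 and 7.47. Serinc3 was 10.73 and 11.14 against 11.87 in both sEILP_WT libraries, which is the highest value in the table, so its difference of -1.01 is limited by that ceiling. The other genes named by the same rule, Ccny, Wdr73, Zfp35 and Tbc1d9b, had differences between -2.21 and -1.04. Without EILP_KO replicate 2, Aff4, Ccny, Wdr73 and Tbc1d9b passed the threshold, and without EILP_KO replicate 1, Cd72 did. The remaining EILP_KO library is there assumed to vary like the other groups.

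No gene higher in EILP_KO passed. Kmo, the kynurenine monooxygenase of tryptophan breakdown, was 9.21 and 8.50 in EILP_KO and 7.76 and 7.56 in sEILP_WT, a difference of 1.49 (SE 0.36, limma adjusted p = 0.492). Its means elsewhere were 6.63 in ALP_WT, 7.97 in EILP_WT and 6.37 in cEILP_WT. Kmo was therefore above every one of these group means in both mutant libraries. Prdm4 was 6.61 and 6.83 against 5.62 and 5.13. Utp20, a factor of ribosomal RNA processing, was 6.69 and 7.11 against 3.88 and 4.99. For Utp20 the sEILP_WT mean, 4.44, was the lowest, with 6.46 in ALP_WT, 6.18 in EILP_WT, 6.02 in cEILP_WT and 5.38 in ILCP_WT. Single libraries of other groups also stood low, with cEILP_WT replicate 1 at 5.01 and EILP_WT replicate 3 at 5.23. Chn2, which encodes a Rac-directed GTPase activator, was 7.33 and 6.87 against 5.56 and 6.08. Its means were 6.95 in EILP_WT and 6.82 in ILCP_WT, near the mutant values. Anxa1, a phospholipid-binding protein of leukocytes, was 6.11 and 6.37 against 5.05 and 3.16. Chad, a cartilage matrix protein, was 5.53 and 6.59 against 3.20 and 2.11, with means of 5.33 in EILP_WT and 6.63 in ILCP_WT. Gata1, the erythroid and mast cell factor, was 3.75 and 7.06 in EILP_KO and at the lowest value in both sEILP_WT libraries (limma adjusted p = 0.388). Elsewhere Gata1 was 3.96, -1.84 and -1.57 in ALP_WT, 3.14, 1.98 and -4.41 in EILP_WT, and 3.62 and 3.34 in ILCP_WT. Its mean in cEILP_WT was 2.28. The value in EILP_KO replicate 1 thus lay within the range of the wild-type libraries. The other 5 named genes were Smim13, Phka1, Minpp1, Ciapin1 and Ccnt1, all without overlap and with adjusted p from 0.521 to 0.644.

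The genes of the sort gates are measured here as a check on what the labels say. Zbtb16 was 4.56 and 5.61 in EILP_KO and 4.28 and 4.60 in sEILP_WT. The groups overlapped, and both lay between ALP_WT, at -4.65 ± 0.16 (SD, n = 3), and cEILP_WT, at 6.83 ± 0.12 (SD, n = 3). The difference of 0.45 had a 95% interval from -0.96 to 1.86 and a limma adjusted p of 0.99. Flt3 was 8.78 and 8.05 against 9.47 and 8.78, with a fitted difference of 0.02 and an interval of -1.74 to 1.78. That value rests on the batch term, since EILP_KO replicate 2, in batch 2, was below both specified libraries. Its means were 10.68 in ALP_WT, 7.77 in EILP_WT and 7.31 in cEILP_WT. Neither Zbtb16 nor Flt3, which split the wild-type EILP gate, passed the test, and for Flt3 the interval admits differences of over 1 log2 unit in either direction.

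The remaining gate genes were present as the labels require. Kit, the stem cell factor receptor, was 7.21 and 8.33 against 7.91 and 8.60. Itgb7, the beta 7 chain of the a4b7 integrin, was 10.23 and 9.62 against 9.81 and 9.79, with an interval of -0.41 to 0.97. Itga4, the alpha 4 chain, was 9.44 and 8.81 against 9.71 and 9.76, without overlap (difference -0.57, limma adjusted p = 0.745). Cd244, which encodes 2B4, was 6.70 and 7.42 against 7.34 and 6.63. Thy1, gated out in both groups, was -1.30 and -1.28 in EILP_KO, and 1.46 and the lowest value, -4.83, in sEILP_WT.

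Il7r, the receptor for interleukin-7, was not a gate gene for either group and differed widely in value. It was -1.30 and -0.99 in EILP_KO and 6.03 and 6.56 in sEILP_WT, without overlap. Its fitted difference was -8.23 (SE 2.77, 95% interval -14.26 to -2.20) and did not pass (limma adjusted p = 0.721). The means were 8.25 in ALP_WT and 7.05 in cEILP_WT, and EILP_WT spread from the lowest value upward, at 3.11 ± 6.70 (SD, n = 3). That spread enters the SE of Il7r, since all libraries were fitted together.

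Among transcription factors and markers of the ILC path, most members could not be told apart between the groups. Of 18 tested members, 0 rose, 1 fell (Tcf7) and 17 did not pass. The median difference was -0.14, beside 0.02 over all tested genes, and it was 0.03 without the 2 members for which a whole group was at the lowest value. The sign turned with the library left out: the median was 0.26 without EILP_KO replicate 1, -0.54 without EILP_KO replicate 2, -0.80 without sEILP_WT replicate 1 and 0.44 without sEILP_WT replicate 2. 3 members, Id2, Runx3 and Lef1, were higher in both mutant libraries than in both specified libraries, and 3, Tcf7, Gata3 and Sox4, were lower. Over all genes these shares were 18.4% and 16.7%, so the counts of 3 of 18 are near the background. This list and those that follow were chosen with earlier results of these data known. A share in a list that departs from the share over all genes is therefore not independent support. Id2, the inhibitor of E proteins that the ILC path depends on, was 9.64 and 9.30 in EILP_KO and 8.37 and 8.24 in sEILP_WT. Its difference was 1.10 (95% interval 0.12 to 2.09, limma adjusted p = 0.79). Its means were 4.34 in ALP_WT and 9.69 in EILP_WT, so the mutant level was near that of the heterozygous gate. Gata3, needed by ILCs and T cells, was 4.90 and 5.49 against 6.31 and 6.38. Its interval ran from -3.70 to 0.10 (adjusted p = 0.852), and its mean in cEILP_WT was 8.02.

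Nfil3, an early inducer of the ILC path, was 9.25 and 8.80 in EILP_KO and 9.60 and 9.13 in sEILP_WT, with an interval of -1.63 to 1.24. Tox, an HMG-box factor, was 7.42 and 8.35 against 7.43 and 7.50. It was the list's 1 member whose interval, -0.41 to 0.88, lay within 1 log2 unit of 0. Sox4 was 8.01 and 7.42 against 8.57 and 8.74 (difference -0.80, SE 0.20, limma adjusted p = 0.521). Rora, a receptor needed by ILC2 cells, was at the lowest value in EILP_KO replicate 1 and at 5.43 in replicate 2, against 4.52 and 4.61. The mutant libraries thus disagreed on Rora by more than the groups did on any other member named here. Lef1, the closest relative of Tcf7, was 4.59 and 5.87 against 3.26 and 4.09, with an interval from -3.27 to 5.89. Bcl11b, a commitment factor, was at the lowest value in both mutant libraries, at -3.29 and the lowest value in sEILP_WT, and at a mean of 4.53 in cEILP_WT.

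**Figure D2:**
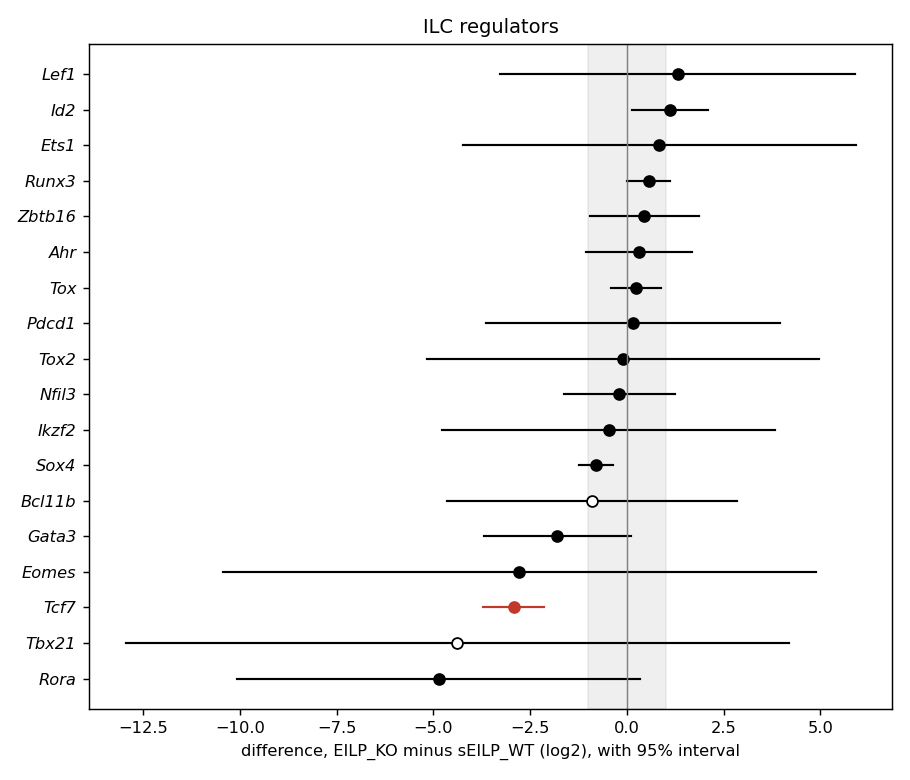
Fitted difference of each ILC regulator (log2, EILP_KO minus sEILP_WT) with its 95% interval; red marks the member that passed the threshold, open circles mark genes with a whole group at the lowest value, and the grey band spans 1 log2 unit either side of 0. Tcf7 is the member that passed, and most intervals reach well beyond the band.

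TCF-1 acts with a set of partners, and among these 18 tested genes 1 fell (Tcf7), 0 rose and 17 did not pass. The median difference was 0.09. For 4 of them the interval lay within 1 log2 unit of 0. Ctnnb1, which encodes beta-catenin, was 8.60 and 8.68 against 8.62 and 8.75 (interval -0.55 to 0.71). Aes, a short Groucho-family member, was 8.05 and 8.06 against 8.19 and 8.18 (interval -0.49 to 0.25). Axin1, a scaffold of the beta-catenin destruction complex, and the corepressor Tle3 were the other 2, at 7.54 and 7.33 against 7.50 and 7.35, and at 6.43 and 6.81 against 6.74 and 6.14.

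The Notch receptor stood low in the mutant by value, without passing the test. Notch1 was 3.58 and 3.63 in EILP_KO and 6.31 and 5.61 in sEILP_WT. The mutant libraries lay close together and well below both specified libraries. The difference was -2.58 (SE 0.73, 95% interval -4.17 to -0.99, limma adjusted p = 0.523). The wild-type means were 7.87 in ALP_WT, 5.18 in EILP_WT and 4.89 in cEILP_WT, so Notch1 was also under each of these. Of 8 tested Notch pathway genes 0 passed, 3 had a positive and 5 a negative difference, and the median was -0.52. Poglut1, a glucosyltransferase that modifies Notch, was 6.56 and 7.29 against 5.95 and 6.02 (difference 1.00, adjusted p = 0.745). Rbpj, the DNA-binding partner of Notch, was 6.85 and 6.99 against 7.14 and 7.28. Myc was 7.58 and 8.56 against 8.78 and 8.57, and Hes1, a common Notch target, was 2.47 and 5.55 against 2.62 and 3.87.

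In the lists of ILC surface, T lineage, natural killer and B lineage genes, negative differences outnumbered positive ones in the fit of all libraries, and no member passed. For the B lineage list this did not hold without sEILP_WT replicate 2. Of 16 ILC surface and effector genes, 5 had a positive and 9 a negative difference and 2 were at the lowest value in all 4 libraries. The median was -0.44, and it was -0.97 without EILP_KO replicate 1. Il2rg, the common gamma chain of the interleukin receptors, was 5.93 and 5.85 in EILP_KO and 6.62 and 6.64 in sEILP_WT (difference -0.76, limma adjusted p = 0.745), and its mean in cEILP_WT was 7.52. Il12rb2 was 5.88 and 6.25 against 6.97 and 6.98, and Ltb, a lymphotoxin chain, was 3.49 and 3.73 against 4.85 and 4.93. These 3 genes were each lower in both mutant libraries. Over the 16 genes of the list, both mutant libraries were lower than both specified libraries for 6 and higher for 1, beside 16.7% and 18.4% over all genes. Il2rb, the shared beta chain of the interleukin-2 and interleukin-15 receptors, was 7.17 and 7.02 against 7.21 and 7.34, far above ALP_WT at -0.43 ± 4.09 (SD, n = 3).

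The T lineage list had 21 tested members, of which 5 had a positive and 15 a negative difference. Its median was -1.80, and it was -0.90 without the 8 members for which a whole group was at the lowest value, and -0.69 without EILP_KO replicate 2. A low-value list of this kind is sensitive to where the lowest value lies, and with a pseudocount of 1 the median was -0.76. Trat1, an adaptor of the T cell receptor complex, was at the lowest value in both mutant libraries and at 0.57 and 4.19 in sEILP_WT (limma adjusted p = 0.536). Cd3e, a signalling chain of that receptor, was at the lowest value in both mutant libraries and at -2.75 and 3.45 in sEILP_WT. For Trat1 and Cd3e the specified libraries differed from each other by more than 3 log2 units. Lck, the proximal kinase, was well measured at 7.30 and 7.38 against 7.87 and 7.88 (interval -1.29 to 0.33). Cd27, a costimulatory receptor, was 6.75 and 6.49 against 7.07 and 7.35. Over the T lineage list, both mutant libraries were lower than both specified libraries for 7 members and higher for 3. These counts stand beside 16.7% and 18.4% over all genes. The T lineage genes named here are all from the lower side.

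Among 15 natural killer and cytotoxic genes, 3 had a positive and 11 a negative difference, with a median of -0.58, which was -0.21 without the 6 members with a group at the lowest value. Leaving out 1 library in turn moved the median of the list from -4.05 without sEILP_WT replicate 1 to -0.28 without sEILP_WT replicate 2. The summed level of the list went the other way, at 8.88 and 9.35 in EILP_KO and 8.77 and 8.82 in sEILP_WT. Nkg7, a granule membrane protein, was 8.11 and 8.70 against 7.93 and 7.92. Among 14 B lineage genes the median was -0.56, with 4 positive and 7 negative, and it was -1.43 without the 4 members with a group at the lowest value. It was -2.69 without sEILP_WT replicate 1, and without sEILP_WT replicate 2 it was 0.17, with 6 positive of 11. Dntt, the terminal transferase of early lymphoid cells, was 6.33 and 3.85 in EILP_KO and 9.05 and 8.26 in sEILP_WT. Both mutant values were below both specified values, and Dntt was 11.87 in every ALP_WT library, the highest value of the table. Its difference was -4.31 (SE 2.22, limma adjusted p = 0.89). Ighm was 9.36 and 8.70 against 9.65 and 9.64. Ebf1, a defining B lineage factor, was at the lowest value in all 4 libraries.

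In the dendritic and myeloid lists positive differences outnumbered negative ones, again with no member passing. Of 21 dendritic cell genes, 13 had a positive and 6 a negative difference, and the median was 0.35, with 0.18 to 0.97 when each of the 4 libraries was left out. Irf8, a factor of dendritic and monocytic progenitors, was 11.06 and 10.29 in EILP_KO and 10.84 and 10.28 in sEILP_WT. The groups overlapped on Irf8, and both were above cEILP_WT, whose mean was 8.77. Batf3, a factor of cross-presenting dendritic cells, was 3.97 and 3.90 against 2.13 and 0.71. Of 11 MHC class II genes the median was 0.12, with 7 positive and 4 negative, and its sign turned with the library left out. It was -0.70 with 3 positive without EILP_KO replicate 1, and 0.46 with 9 positive without EILP_KO replicate 2. With no batch term 2 were positive. Their summed level was 10.93 and 9.61 in EILP_KO and 10.51 and 10.30 in sEILP_WT. Ciita, their master activator, was 5.38 and 3.49 against the lowest value and -2.72 (limma adjusted p = 0.644).

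Of 19 myeloid genes, 14 had a positive and 5 a negative difference, with a median of 0.47, and of 0.31 to 0.85 when each of the 4 libraries was left out. In 9 of them both mutant libraries were higher than both specified libraries and in 3 both were lower, beside 18.4% and 16.7% over all genes. Spi1, which encodes PU.1, was 8.28 and 8.14 against 7.72 and 7.68. Itgam, an integrin chain of myeloid cells, was 7.53 and 7.33 against 5.31 and 4.54. Tyrobp, a signalling adaptor, was 8.84 and 8.58 against 8.26 and 7.83 (difference 0.73, 95% interval 0.09 to 1.37, limma adjusted p = 0.77). Csf1r, the receptor for the macrophage growth factor, was 7.18 and 6.80 against 5.57 and 4.95, and its mean in ALP_WT was 7.71. For these 4 genes the order of the libraries was the same, and the means of EILP_WT were 7.50, 6.17, 8.65 and 6.32. Mpo, myeloperoxidase, was 11.70 and 11.87 against 11.43 and 11.34, near the ceiling of the table. Cebpb, Csf3r and Calr were the 3 members lower in both mutant libraries.

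Of 14 neutrophil granule genes, 9 had a positive and 5 a negative difference, with a median of 1.38, which was 0.07 without EILP_KO replicate 2. Elane, neutrophil elastase, was 7.45 and 9.65 in EILP_KO and 4.61 and 7.04 in sEILP_WT. The gap between the groups on Elane was close to the gap within each. Its difference was 3.50 (SE 1.46, limma adjusted p = 0.794). Prtn3, proteinase 3, was 8.46 and 8.52 against 7.69 and 6.98 (difference 1.73, adjusted p = 0.784). The summed level of the neutrophil list was 12.06 and 12.44 in EILP_KO and 11.83 and 11.72 in sEILP_WT on the log2 scale, and that of the myeloid list was 12.64 and 12.70 against 12.41 and 12.29.

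Genes of stem and multipotent progenitors were split. Of 20, 9 had a positive and 11 a negative difference, with a median of -0.21. Cd34, a progenitor surface protein, was 9.84 and 9.12 in EILP_KO and 10.23 and 10.11 in sEILP_WT, and Satb1, a chromatin organiser of lymphoid progenitors, was 8.32 and 7.74 against 8.67 and 8.79. Lmo2, a bridging factor of stem cells, was 6.71 and 7.32 against 6.10 and 6.12. Hlf was at the lowest value and 3.17 against 4.52 and 4.54. The 4 genes therefore did not move in 1 direction. Among 8 mast cell and basophil genes, Cpa3, a mast cell protease that is also high in EILP, was 8.90 and 7.95 against 9.89 and 10.00 (difference -1.45, SE 0.48, limma adjusted p = 0.713). Cpa3 was 2.44 ± 0.92 (SD, n = 3) in ALP_WT and 10.20 ± 0.14 (SD, n = 3) in cEILP_WT. The list had 6 positive and 2 negative differences and a median of 1.78, and without EILP_KO replicate 2 there were 3 positive differences and the median was -0.79. The summed level of the list was 9.02 and 8.71 in EILP_KO and 10.10 and 10.16 in sEILP_WT.

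EILP_KO replicate 2 held more erythroid and megakaryocyte transcripts than the other 3 libraries. The summed level of the 17 genes was 9.68 in EILP_KO replicate 1, 11.77 in EILP_KO replicate 2, and 9.24 in both sEILP_WT libraries. It was 8.88, 10.00 and 10.12 in EILP_WT and 10.06, 9.49 and 10.24 in cEILP_WT. By this sum EILP_KO replicate 1 lay within the range of those wild-type libraries. Car1, a carbonic anhydrase of erythroid progenitors, was 3.65 and 10.00 in EILP_KO and 4.56 and 3.93 in sEILP_WT. Car2 was 6.04 and 10.46 against 7.34 and 6.88. Klf1, the erythroid activator, was at the lowest value and 7.13 against 0.83 and 1.37. Pf4, a platelet chemokine, was at the lowest value in 3 of the libraries and at 5.38 in EILP_KO replicate 2. In each of these 4 genes EILP_KO replicate 2 alone was high. Haemoglobin genes did not follow that order: Hba-a1 was 7.49 and 6.53 against 5.37 and 4.48, and Hbb-bs was 7.61 and 5.94 against 4.79 and 3.66, with EILP_KO replicate 1 the higher. The list had 13 positive and 4 negative differences and a median of 1.57. Both mutant libraries were higher than both specified libraries for 9 of the 17 genes and lower for 0, beside 18.4% and 16.7% over all genes. Without EILP_KO replicate 2 there were 10 positive differences and the median was 0.55, and without EILP_KO replicate 1 there were 16 and the median was 1.77. None of the 17 passed. Gata1 belongs to this list and was 3.75 in EILP_KO replicate 1, so its value there does not rest on replicate 2. That value was within the range of the wild-type libraries given above.

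The same library differed in its sex-linked genes. The Y-linked genes Ddx3y, Eif2s3y, Kdm5d and Uty were all at the lowest value in EILP_KO replicate 2 and above it in EILP_KO replicate 1 and both sEILP_WT libraries. Ddx3y was 5.87 in EILP_KO replicate 1 and 5.47 and 5.56 in sEILP_WT. Xist was 5.40 and 4.76 in EILP_KO and 3.35 and 3.97 in sEILP_WT, so libraries with Y-linked transcripts also held Xist. Sex, batch and replicate differ together between the EILP_KO libraries and cannot be told apart, and their part in the other results was not tested beyond the fits without each library. With the mean level of the 4 Y-linked genes as a term, an alternative added after the data were seen, 3 genes changed, and Tcf7 had a difference of -3.04 (limma adjusted p = 0.0148).

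**Figure D3:**
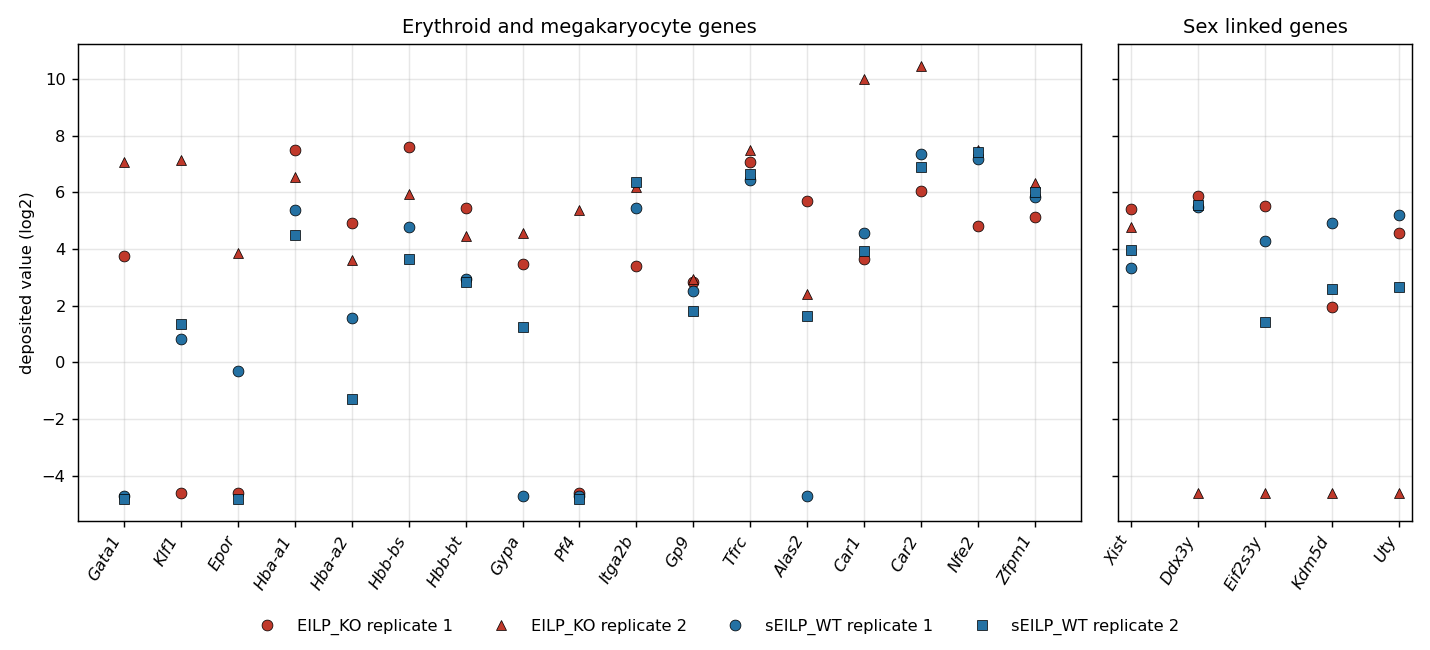
Deposited log2 values of 17 erythroid and megakaryocyte genes (left) and 5 sex-linked genes (right) in the 4 libraries; red is EILP_KO, blue is sEILP_WT, and the red triangle is EILP_KO replicate 2. That library is high for Car1, Car2, Klf1 and Pf4 and at its lowest value for the 4 Y-linked genes.

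Cell cycle genes had small differences, most of them positive, and none passed. Of 24 tested, 20 had a positive and 4 a negative difference (83.3% positive, beside 51.1% of all genes), with a median of 0.34. Both mutant libraries were higher than both specified libraries for 11 and lower for 1, beside 18.4% and 16.7% over all genes. The positive share was 70.8% to 83.3% when each of the 4 libraries was left out in turn. The interval lay within 1 log2 unit of 0 for 8 of the 24, beside 35.3% of all genes with a mean of at least 5. Mcm3, a subunit of the replicative helicase, was 9.84 and 9.86 in EILP_KO and 9.89 and 9.83 in sEILP_WT (95% interval -0.46 to 0.51). Mcm6 was 10.62 and 10.43 against 10.45 and 10.86 (interval -0.48 to 0.29), and Top2a, a topoisomerase of dividing cells, was 8.95 and 9.33 against 9.09 and 9.02 (interval -0.60 to 0.63). Plk1, a mitotic kinase, was 6.64 and 7.08 against 6.59 and 5.54 (difference 0.83, SE 0.40, limma adjusted p = 0.85). Mki67 was 6.65 and 7.08 against 7.96 and 6.37, where the specified libraries spread more than the mutant ones. Of 13 survival genes the median was 0.29. Bcl2, which protects lymphoid cells from apoptosis, was 9.44 and 9.40 against 9.28 and 9.40, with an interval of -0.41 to 0.49. Its mean in ALP_WT was 7.77, and both groups were above it.

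The other lists had no member that passed. Of 6 E and Id protein genes the median was -0.26: Tcf3, which encodes E2A, was 8.32 and 8.45 against 8.76 and 8.59. Of 16 interferon response genes, 11 had a positive and 5 a negative difference, with a median of 0.17. Of 10 early response genes the median was -0.03, and Egr1 was at the lowest value in both mutant libraries and at 4.003 and 3.003 in sEILP_WT (limma adjusted p = 0.76).

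As a measure over many genes, the median absolute difference between pairs of libraries was taken over the 5887 genes with a mean of at least 5. The sEILP_WT libraries differed from each other by 0.267, and the EILP_KO libraries by 0.386. EILP_KO replicate 1 differed from the sEILP_WT libraries by 0.334 and 0.331, from the EILP_WT libraries by 0.326, 0.367 and 0.470, from cEILP_WT by 0.411, 0.385 and 0.419, and from ALP_WT by 0.434, 0.409 and 0.350. Over these genes it was as near to the specified libraries as to its nearest EILP_WT library. Over all tested genes it was nearer to EILP_WT replicate 1, at 0.474, than to the sEILP_WT libraries, at 0.521 and 0.523. EILP_KO replicate 2 differed from sEILP_WT by 0.390 and 0.358, from EILP_WT by 0.387, 0.410 and 0.487, from cEILP_WT by 0.432, 0.412 and 0.420, and from ALP_WT by 0.462, 0.436 and 0.357. Over these genes its nearest libraries were ALP_WT replicate 3 and sEILP_WT replicate 2. Over all tested genes they were EILP_KO replicate 1 at 0.547, EILP_WT replicate 1 at 0.551 and sEILP_WT replicate 2 at 0.557. ALP_WT replicate 3 was at 0.582, so by this measure the order depends on the genes used. ILCP_WT was the farthest group from both, at 0.571 to 0.625. From the other side, sEILP_WT replicate 2 was nearest to sEILP_WT replicate 1, then to cEILP_WT replicate 2 at 0.282 and ALP_WT replicate 3 at 0.299, and was 0.331 and 0.358 from the mutant libraries. By Pearson correlation, the sEILP_WT libraries were the nearest to each mutant library in both sets of genes, by small margins. Over genes with a mean of at least 5 they were at 0.861 and 0.861 for EILP_KO replicate 1, with EILP_WT replicate 1 at 0.854. For EILP_KO replicate 2 they were at 0.825 and 0.843, with EILP_WT replicate 1 at 0.824 and ALP_WT replicate 3 at 0.810. These distances and correlations have no test and no batch term, and each includes the noise of both libraries. EILP_KO replicate 1 shares batch 1 with both sEILP_WT libraries and EILP_KO replicate 2 does not.

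**Figure D4:**
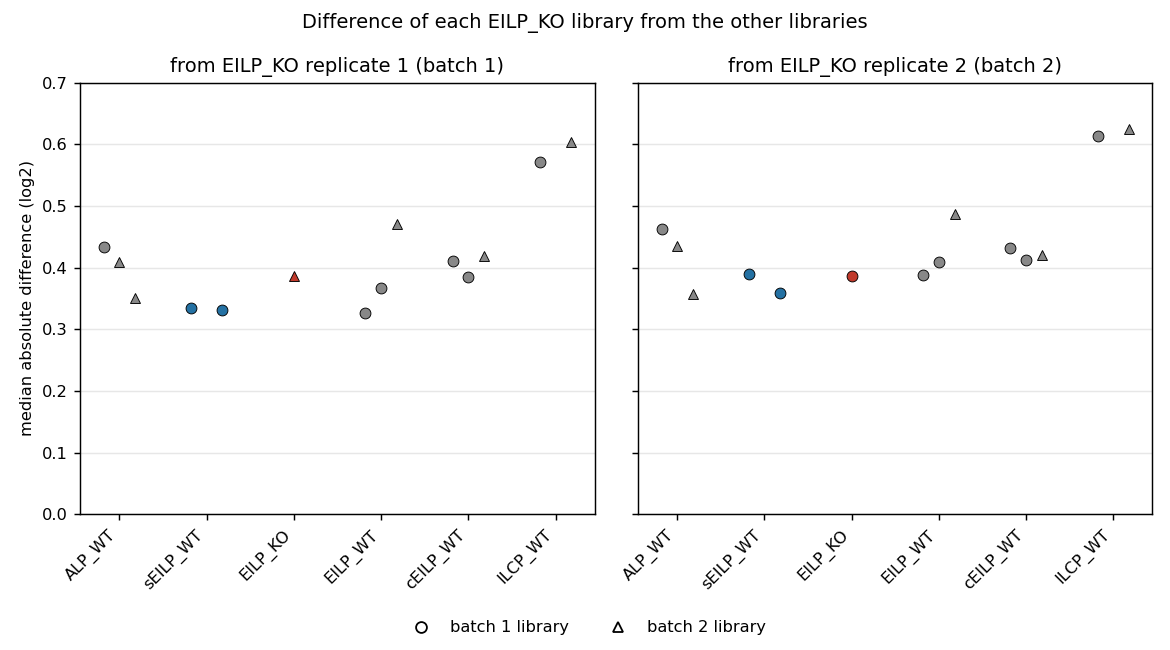
Median absolute log2 difference of EILP_KO replicate 1 (left) and replicate 2 (right) from every other library over genes with a mean of at least 5, by group; circles are batch 1 libraries and triangles batch 2 libraries. The sEILP_WT libraries lie at 0.331 to 0.390 and ILCP_WT lies farthest, at 0.571 to 0.625.

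To set the mutant beside the stages, genes that differed between ALP_WT and cEILP_WT were used. This is a contrast of other libraries, although all 15 share 1 fit of the spread and the batch. It had 503 changed genes, 248 higher in cEILP_WT (1.97% of those tested) and 255 lower (2.03%). The cEILP_WT and sEILP_WT libraries share a reporter strain that ALP_WT and EILP_KO lack, so for these genes the strain cannot be told apart from the stage. Over the 248 higher genes the median level was 4.30, 4.47 and 4.54 in ALP_WT, 5.91 and 6.22 in EILP_KO, 6.24 and 6.30 in sEILP_WT, and 7.07, 6.86 and 6.87 in cEILP_WT. EILP_WT had 6.32, 6.70 and 7.07. Both groups thus lay between ALP_WT and cEILP_WT, and both mutant libraries were under both specified libraries by this median, replicate 2 by little. ILCP_WT, the later stage, had 6.73 and 6.80 and lay between them too. The genes were chosen for their difference between ALP_WT and cEILP_WT, which favours other groups falling between. Lying between therefore does not place a group on the path.

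Gene by gene, 73 of these had a positive and 171 a negative difference between EILP_KO and sEILP_WT, so 29.9% of those above the lowest value were positive, beside 51.1% of all such genes. The median difference was -0.32, beside 0.02 for all tested genes. Both mutant libraries were lower than both specified libraries for 85 genes (34.3%) and higher for 34 (13.7%), beside 16.7% and 18.4% over all genes. Of the 248, 1 passed the threshold, the targeted gene Tcf7, and 49 had an unadjusted limma p under 0.05, 10 higher and 39 lower. Over all tested genes that p was reached by 5.85%, with 2.02% higher and 3.83% lower. The same estimate of the spread had called these 248 genes, so the counts are set beside the shares only. The share that was positive stayed between 29.1% and 36.5% when each of the 4 libraries was left out in turn, and was 34.4% with no batch term. Igfbp4, a binding protein of insulin-like growth factors, was 7.64 and 7.59 in EILP_KO and 8.99 and 9.06 in sEILP_WT (difference -1.38, SE 0.35, adjusted p = 0.52). Jak1, the kinase that serves the common gamma chain receptors, was 9.18 and 9.40 against 9.76 and 9.81, and Stat5b, which acts after it, was 7.31 and 7.48 against 8.03 and 8.03. Fgf3, a growth factor with a mean of 8.92 in cEILP_WT, was at the lowest value and 2.83 against 5.12 and 5.36. In these 4 genes both mutant libraries were lower, and all 4 were chosen after their values were seen.

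By sign, the 255 genes that were lower in cEILP_WT than in ALP_WT lay near the background of all genes, without a steady direction. Their median level was 7.18, 7.33 and 6.90 in ALP_WT, 6.30 and 5.85 in EILP_KO, 6.28 and 6.11 in sEILP_WT, and 5.10, 5.64 and 5.11 in cEILP_WT. The mutant libraries lay on either side of the specified ones. Of 226 genes above the lowest value in at least 1 of the 4 libraries, 123 were positive (54.4%) and 103 negative, near the 51.1% of all genes, and the share was 51.3% to 62.8% when each of the 4 libraries was left out in turn and 45.6% with no batch term. Both mutant libraries were higher than both specified libraries for 44 of the 255 (17.3%) and lower for 45 (17.6%), beside 18.4% and 16.7% over all genes. None passed the limma threshold, and 32 had an unadjusted p under 0.05, 15 higher and 17 lower. Over all tested genes that p was reached by 5.85%, with 2.02% higher and 3.83% lower.

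**Figure D5:**
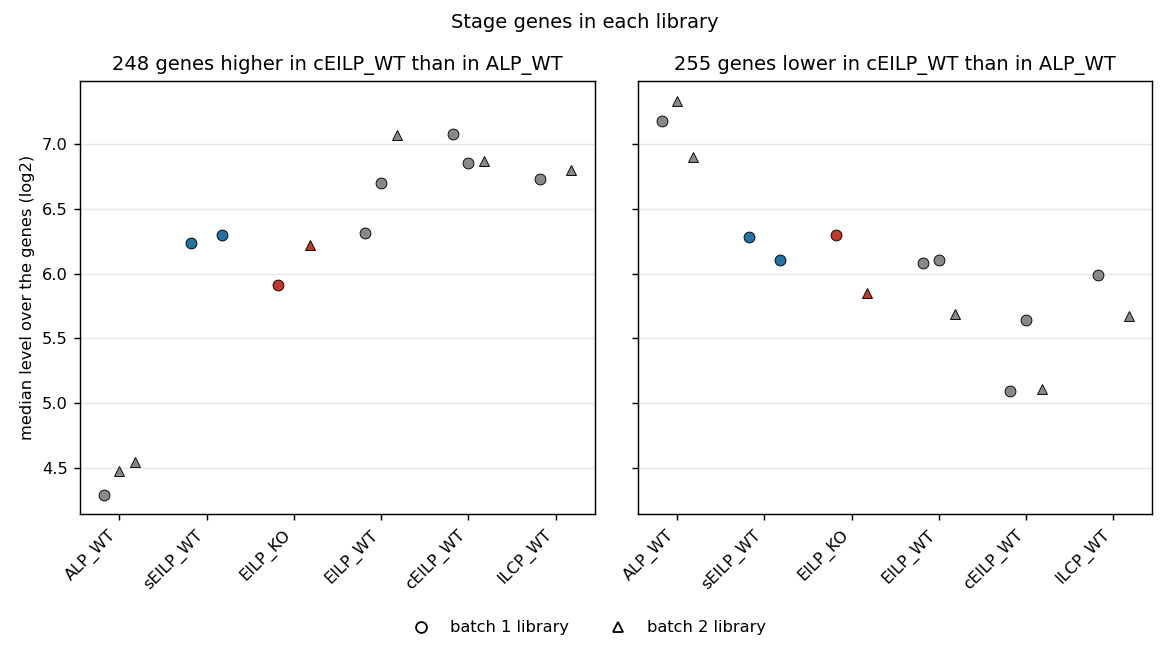
Median log2 level in each library over the 248 genes higher (left) and the 255 genes lower (right) in cEILP_WT than in ALP_WT; red is EILP_KO, blue is sEILP_WT, circles are batch 1 libraries and triangles batch 2 libraries. On the left EILP_KO lies at 5.91 and 6.22 and sEILP_WT at 6.24 and 6.30, between ALP_WT and cEILP_WT. ILCP_WT, at 6.73 and 6.80, lies between them too.

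The same fit gives the mutant against the other wild-type stages, and these comparisons share the EILP_KO libraries with the one above, so their counts are set side by side only. Against ALP_WT (n = 3) 167 genes changed (1.33%), 76 higher (0.605%) and 91 lower (0.724%) in EILP_KO. Against cEILP_WT (n = 3) 37 changed (0.294%), 10 higher (0.0795%) and 27 lower (0.215%), and against EILP_WT (n = 3) 13 changed (0.103%), 6 higher (0.0477%) and 7 lower (0.0557%). Against sEILP_WT (n = 2) the count was the 2 genes named above. The groups differ in size and in spread, so these counts do not rank the stages by likeness.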

How the data were processed

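The 4 libraries, and the 11 others that entered the fit, were made with low-input kits, per the labels' protocols. Per the submitters' processing notes, bcl2fastq 2.17, STAR 2.5.2b, RSEM 1.2.23 and limma (no version) were used with build mm10; the annotation is not given in the sources used here. The authors' deposited table holds log2 values for 12798 genes, scaled to library size and quantile normalized as read from the values, and no counts were analysed here; 24 further columns without a name or values were not used.

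Genes that reached a log2 value of 0 in 2 or more libraries were kept (12572). One limma 3.58.1 model in R 4.3.3, with group and batch as terms and an intensity trend, was fitted to all 15 libraries, and p-values were adjusted over all tested genes by Benjamini-Hochberg. The fit was tested on simulated data. In counts of overlap and sign, values at the lowest value of a library were treated as tied.

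Genes were named by rule: Tcf7, then up to 12 per direction among changed genes with at least 1 log2 unit, a level above the median and no overlap, with open places filled by unadjusted p. No named gene but Tcf7 passed under the rule. 1 gene of the ILC regulator list is not reported here. The members and the gene lists were chosen with earlier results of these data known. Positions and promoter letters are from RefSeq GRCm38.p6, where 11575 tested genes matched a symbol. The 18 alternatives are given at the end.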

Additional observations from a re-analysis of the deposited data

How the results depend on the processing

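The count of changed genes, 2 in the reported fit, was 5 with no batch term, 0 in the batch 1 libraries, 0 in the 4 libraries of the groups alone, 13 with no intensity trend and 0 with a replicate block. Where it was 0, limma gave 1093, 868 and 617 genes at an unadjusted p under 0.05 in the batch 1 fit, the 4-library fit and the replicate block. The labels do not say that equal numbers pair libraries. The correlation of the replicate differences of the 2 groups was 0.00771 over tested genes and 0.0718 over those with a mean of at least 5. The EILP_KO libraries differ in batch and the sEILP_WT libraries do not, so this correlation cannot decide whether libraries were paired. Leaving out 1 library at a time gave 0 to 49 changed genes: 31 without EILP_KO replicate 1, 49 without EILP_KO replicate 2, 0 without sEILP_WT replicate 1 and 4 without sEILP_WT replicate 2. Tcf7 and Plod1 both remained among the calls without EILP_KO replicate 2. The count stayed at 2 or 3 with other filters, normalizations and weights. The direction of the calls differed between fits, and with a pseudocount or with no filter 1 changed gene was higher. No named gene reversed its direction. Of the 2 called genes, Tcf7 no longer passed under 7 of 18 alternatives and Plod1 under 6, and 6 named genes that did not pass in the reported fit passed under 1 alternative each. The cause of these changes was not tested. With 2 libraries a group and unknown depth, most intervals reach beyond 1 log2 unit from 0 on at least 1 side.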

Other observations

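Some genes were listed in 1 group only. At the lowest value in both mutant libraries and at least 0 in both sEILP_WT libraries were 133 genes, and 46 had the reverse pattern. With at least 3 in the listed group the counts were 24 and 15. Of the 24, Dgka, a diacylglycerol kinase of lymphocytes, was 4.33 and 5.14 in sEILP_WT, and Cd274, which encodes PD-L1, was 3.09 and 3.33. Of the 15, Epb4.1l3, a membrane skeleton protein, was 4.45 and 3.62 in EILP_KO, with a mean of 4.11 in ALP_WT and the lowest value in every EILP_WT, cEILP_WT and ILCP_WT library. Nxf2, an RNA export factor gene, was 4.15 and 3.43 in EILP_KO and had the smallest adjusted p above the threshold, 0.099 by limma. Plod1 is the member of these sets that passed. The EILP_KO libraries also had more genes at the lowest value in all, as given above.

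The following values are of 2 constant genes of the T cell receptor gamma locus and of Lrrc28. Tcrg-C2 was at the lowest value in both mutant libraries and at -0.03 and 3.02 in sEILP_WT, and its mean in cEILP_WT was 5.97. Tcrg-C4 was at the lowest value in both mutant libraries and at -2.85 and 3.50 in sEILP_WT, with a mean of 7.30 in cEILP_WT. The limma adjusted p-values were 0.492 and 0.735, so neither passed. In sEILP_WT replicate 1 both were low too. Whether reads were split among similar constant genes was not analysed here, so each value is uncertain. Lrrc28 was -1.83 and -1.28 in EILP_KO and 4.22 and 3.90 in sEILP_WT (difference -5.72, SE 0.92, adjusted p = 0.139). These genes were chosen after their values were seen.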
